A study of Mus musculus with 4 samples.

Results

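The angiopoietin and Tie receptor system was followed through 6 genes of the count table, found by name among 55367 gene names: the ligand genes Angpt1 and Angpt2, the receptor genes Tek (Tie2) and Tie1, the receptor phosphatase gene Ptprb (VE-PTP) and the transcription factor gene Foxo1. RNA came from endothelial cells sorted as CD31+CD45- from subcutaneous KPC tumours, a transplanted mouse pancreatic cancer line, in C57BL/6 mice. The mice had received control Rat IgG or an anti-CD93 antibody by intraperitoneal injection 48 hours earlier, and CD93 is a receptor on the endothelial surface. Each group had 2 libraries, and all 4 shared the strain, tumour, sort and time. The labels do not say whether libraries came from separate or pooled mice, so every p-value reflects variation among libraries alone, which may be technical. The design implies 1 comparison, anti-CD93 against control IgG.

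Angiopoietins are secreted ligands of Tie2, a tyrosine kinase receptor of endothelial cells. Angpt1, made mainly by pericytes and other cells around the vessel, activates Tie2 and supports vessel stability. Angpt2 is made by the endothelium itself, is stored in Weibel-Palade bodies, and can block or weakly activate Tie2 depending on context. Tie1 binds no angiopoietin directly and modulates Tie2 signalling, and VE-PTP removes phosphate from Tie2 and protects VE-cadherin junctions. Tie2 signalling through PI3 kinase and AKT keeps FOXO1 out of the nucleus, and nuclear FOXO1 activates Angpt2 among other genes.

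The libraries held 9364294 to 17813993 reads assigned to genes. Control IgG replicate 2 stood apart: it had the fewest reads, the most detected genes (27718 against 23796 to 25430 in the others), less mitochondrial ribosomal RNA (6.20% of reads against 10.97% to 11.8%) and more reads on olfactory and vomeronasal receptor genes (359.6 CPM against 52.0 to 56.6 CPM). Endothelial identity was plain, since 12 endothelial markers summed to 10070 to 11740 CPM and were led by Cdh5, the VE-cadherin gene, at a mean of 2709 CPM. Markers of other cells were also present. Their sums ran from 879 to 1066 CPM for 12 pericyte and smooth muscle markers, 1768 to 2843 CPM for 8 fibroblast markers and 1682 to 2467 CPM for 8 tumour epithelial markers. The sums of 11 macrophage markers were 44.7 to 80.0 CPM.

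Values are given as CPM (the usual count scaled to library size, here after TMM normalisation), the pair of values of a group in the order of its replicates, or, where genes are compared with each other, as RPKM (the same per kilobase of exon). In RPKM the order of mean levels was Tie1 (121.9), Ptprb (106.6), Angpt2 (74.3), Tek (51.7), Foxo1 (11.5) and Angpt1 (0.171). Tie1 and Ptprb, the highest pair, could not be separated, because Ptprb exceeded Tie1 in anti-CD93 replicate 2 (114.6 against 110.4 RPKM) and was below it in the other libraries. Every further step of the order held in all 4 libraries. The lowest Ptprb value was 100.9 and the highest Angpt2 value 79.7 RPKM, and the lowest Angpt2 value was 70.7 and the highest Tek value 57.4 RPKM. Among the 16945 genes tested, Tie1, Ptprb, Angpt2 and Tek ranked 226, 268, 412 and 641 by mean RPKM, Foxo1 ranked 3699 and Angpt1 16676.

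**Figure D1:**
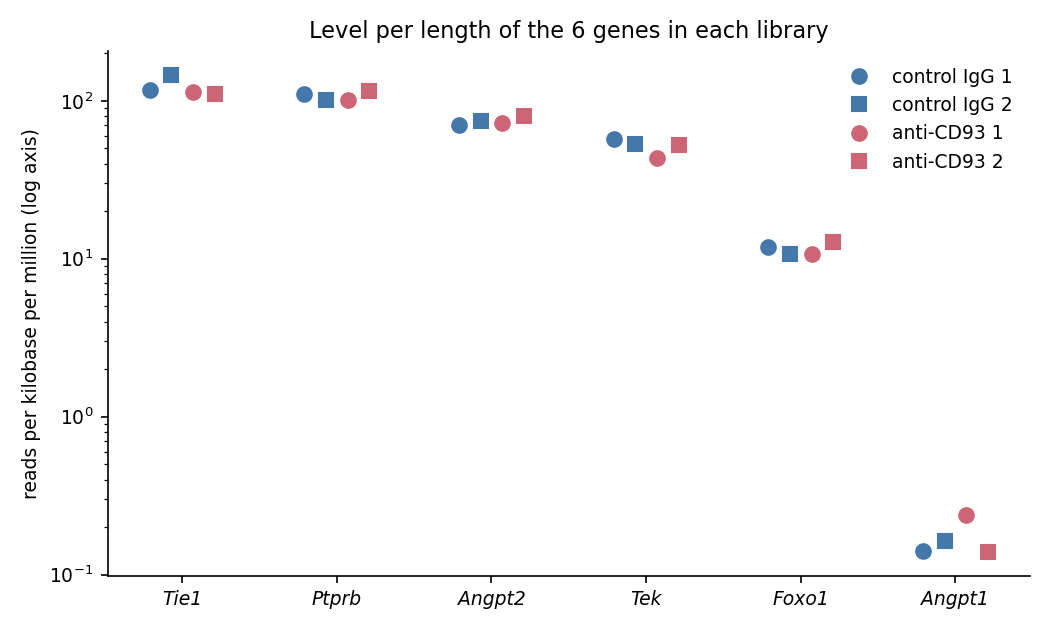
Level of each of the 6 genes in each library (y axis, RPKM on a log axis), with genes ordered by mean level, colour for the group and marker shape for the replicate. Angpt1 lies far under the others, at 0.140 to 0.239, and the control and anti-CD93 points of each gene lie close together.

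None of the 6 genes passed the test between the groups. All 6 passed the count filter and entered edgeR's quasi-likelihood fit across 16945 genes, of which 0% had an adjusted p under 0.05 (0 genes by edgeR and 0 by limma-voom). DESeq2 called 5 genes, of 33419 without that filter. Before adjustment 761 genes by edgeR, or 4.49%, had a p under 0.05 (1.99% higher and 2.5% lower with anti-CD93), and 0 of the 6 had one by edgeR, DESeq2 or limma-voom. The interval of the fold change was narrow for 5 of the 6 and wide for Angpt1.

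Of the ligands, Angpt2 (chromosome 8, 18690263 to 18741562, minus strand, GRCm38) was abundant. Its level was 261 and 275 CPM with control IgG and 267 and 294 CPM after anti-CD93. The groups overlapped, since anti-CD93 replicate 1 lay between the control libraries. The means were 268 ± 9.70 and 281 ± 18.9 CPM (SD, n = 2 each), and the fold change was 1.05, with a 95% interval of 0.803 to 1.37 (log2 fold change 0.068, SE 0.17, adjusted p = 0.933 by edgeR). Angpt2 lies inside the span of Mcph1, a gene on the opposite strand, but their exons share 0 bases. The difference between libraries of one group was 0.074 (control) and 0.14 (anti-CD93) on the log2 scale.

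Angpt1 (chromosome 15, 42424723 to 42676977, minus strand), the agonist ligand, was near the detection limit. It had 9 and 8 reads with control IgG and 22 and 10 reads with anti-CD93. In CPM these were 0.734 (95% exact Poisson interval 0.336 to 1.39), 0.856 (0.370 to 1.69), 1.24 (0.779 to 1.88) and 0.726 (0.348 to 1.34). These intervals cover counting error only and are too narrow, because each mate of a read pair was counted on its own. Anti-CD93 replicate 1 was the highest library and anti-CD93 replicate 2 the lowest, so the groups overlapped. The fold change of 1.25 had a 95% interval of 0.393 to 3.97 (adjusted p = 0.926 by edgeR), and this depth gave no closer bound. The low count stood beside markers of pericytes, a usual source of Angpt1. Pdgfrb was at 59.5 and 82.0 CPM with control IgG and 76.0 and 53.5 CPM with anti-CD93, and Abcc9, the highest of the 12 markers, averaged 467 CPM. The levels were uneven, down to a mean of 1.29 CPM for Tagln, and Abcc9 alone made up a large part of the sum. The summed pericyte and smooth muscle markers were 1019 and 895 CPM in the control libraries and 1066 and 879 CPM in the anti-CD93 libraries. The order of libraries differed between markers: Pdgfrb was highest in control IgG replicate 2 and Abcc9 in control IgG replicate 1. The part of pericytes in the Angpt1 count was not tested. Of Angpt1's exon bases, 737 are shared with the antisense gene Gm17473, which had 0 reads in every library. Reads on these shared bases were assigned to neither gene, so they are missing from the Angpt1 count.

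The receptor Tek (chromosome 4, 94739289 to 94874976, plus strand) was lower in both anti-CD93 libraries than in both control libraries. It was at 270.5 and 252 CPM with control IgG and at 205 and 247 CPM with anti-CD93. The gap between the groups was narrow, because control IgG replicate 2 and anti-CD93 replicate 2 differed by little, and anti-CD93 replicate 1 was the lowest library. The means were 261 ± 12.8 and 226 ± 29.6 CPM (SD, n = 2 each), a fold change of 0.864 with a 95% interval of 0.650 to 1.15 (log2 fold change -0.21, SE 0.18, adjusted p = 0.817 by edgeR).

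Tie1 (chromosome 4, 118471191 to 118490061, minus strand) lay lower with anti-CD93 as well. It was at 579 and 719.9 CPM with control IgG and at 557 and 543 CPM with anti-CD93. Here control IgG replicate 2 was high and the other 3 libraries were close together. The means were 649 ± 99.8 and 549.8 ± 9.91 CPM (SD, n = 2 each), a fold change of 0.847 with a 95% interval of 0.636 to 1.13 (log2 fold change -0.24, SE 0.18, adjusted p = 0.812 by edgeR). The value rested on 1 library. Leaving out control IgG replicate 2 gave -0.076 (adjusted p = 0.884 by edgeR). Leaving out control IgG replicate 1 gave -0.39 (adjusted p = 0.0124 by edgeR), in a fit with control IgG replicate 2 as the only control library and 26.8% of all genes past the threshold. In both other fits of this kind Tie1 did not pass, beside 0% of all genes without anti-CD93 replicate 1 and 0.0059% without anti-CD93 replicate 2.

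Tek and Tie1 were the 2 of the 6 genes whose groups did not overlap. Over all genes tested, 39.8% had groups that did not overlap (20.1% higher and 19.7% lower with anti-CD93), so 2 of 6 is a share near the background. Endothelial markers lay on the same side: 10 of the 12 were lower with anti-CD93, 5 without overlap, 0 passed the test, and their median log2 fold change was -0.18. Without control IgG replicate 2, 8 were lower and the median was -0.040, and without control IgG replicate 1, 11 were lower and the median was -0.28. Without anti-CD93 replicate 1 or 2, 10 were lower each time, with medians of -0.15 and -0.17. Of the 8 tumour epithelial markers 5 were higher and 3 lower (median 0.098, 0 past the test), and 3 of them were higher without overlap. Epcam was at 21.7 and 23.4 CPM with control IgG and 34.1 and 41.1 CPM with anti-CD93. Cdh1, the E-cadherin gene, was at 216 and 210.4 against 351 and 290.0 CPM, and Muc1, an epithelial mucin gene, at 35.2 and 48.1 against 78.5 and 72.0 CPM. The log2 fold changes of Epcam, Cdh1 and Muc1 were 0.74, 0.59 and 0.86, with an adjusted p of 0.812 each by edgeR. These 3 were picked after their values were seen, and Cldn4 of the same list had a value of -0.47. In the fit lacking control IgG replicate 1, Epcam, Cdh1 and Muc1 were at 0.68, 0.61 and 0.65. The 8 markers then split evenly, with 4 on each side of 0. In the fit lacking control IgG replicate 2, the 3 genes were at 0.79, 0.57 and 1.1, and 7 of the 8 markers had positive values. Whether these genes passed in the fits with a library left out is not given here. The keratin markers Krt7, Krt8, Krt18 and Krt19, with most of the summed level, overlapped between the groups. The part of these other cells in the Tek and Tie1 values was not tested. In bulk RNA, fewer endothelial cells and less RNA per cell cannot be told apart. Per 1000 CPM of the summed endothelial markers, Tie1 was 55.9 and 61.3 in the control libraries and 55.3 and 53.3 in the anti-CD93 libraries. Tek on the same scale was 26.1 and 21.5 against 20.4 and 24.2. On this scale the log2 differences were -0.11 for Tie1 and -0.094 for Tek, and the Tie1 groups did not overlap while the Tek groups did. Angpt2 on this scale was 25.2 and 23.4 in the control libraries and 26.5 and 28.9 in the anti-CD93 libraries, also without overlap, and Angpt1, Ptprb and Foxo1 overlapped. Of all genes on this scale 27.4% were higher and 13.7% lower without overlap, so 1 of 6 on each side is near the background. The scale divides by the same markers for all 6 genes, so it adds no separate replicate.

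The window before the Tek start is shown because only this window was available and lay wholly outside the exons of its gene. ETS factors, whose binding core is GGAA, are known regulators of endothelial receptor genes. RefSeq (GRCm38.p6) gave such windows for 3 of the 6 genes, and 1 of these lay wholly outside the exons of its gene. The window holds the 250 bases before the Tek start, chr4:94739039-94739288 on the plus strand, with the letters GGAA in capitals on either strand (TTCC where the match is on the minus strand).
Tek: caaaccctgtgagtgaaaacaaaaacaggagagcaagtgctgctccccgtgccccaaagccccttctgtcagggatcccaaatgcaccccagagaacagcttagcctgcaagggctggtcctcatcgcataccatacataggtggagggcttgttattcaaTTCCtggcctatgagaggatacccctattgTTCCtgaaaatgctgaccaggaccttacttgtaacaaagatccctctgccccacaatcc
It holds 2 matches, both on the minus strand, at 89 to 86 and 59 to 56 bases before the start. Of 32851 RefSeq windows of the same length, 93.4% hold GGAA on either strand. The letters TGTTTAC, a core of FOXO binding sites, had 0 matches on either strand here and are in 3.17% of those windows. A core of GATA binding sites, AGATAA, also had 0 matches and is in 9.99% of them. These are matches of letters and no evidence of binding.

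Ptprb (chromosome 10, 116275523 to 116389535, plus strand), which encodes the phosphatase that dampens Tie2, had the most reads of the 6 genes. It was at 1462 and 1350 CPM with control IgG and at 1345 and 1528 CPM with anti-CD93. Both the lowest and the highest library were anti-CD93 libraries, so the groups overlapped fully. The fold change was 1.02 with a 95% interval of 0.778 to 1.34 (log2 fold change 0.031, SE 0.17, adjusted p = 0.972 by edgeR).

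Foxo1 (chromosome 3, 52268336 to 52353221, plus strand), the transcription factor held in check by Tie2 signalling, showed the same arrangement. It was at 102 and 93.0 CPM with control IgG and at 92.8 and 109.9 CPM with anti-CD93. The anti-CD93 libraries again enclosed the control libraries. The fold change was 1.04 with a 95% interval of 0.776 to 1.39 (log2 fold change 0.053, SE 0.18, adjusted p = 0.952 by edgeR). The antisense gene Gm20402 shares 674 of the exon bases of Foxo1 and had 0 reads in every library. Reads on the shared bases were assigned to neither gene, while RPKM divides by the full exon length.

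**Figure D2:**
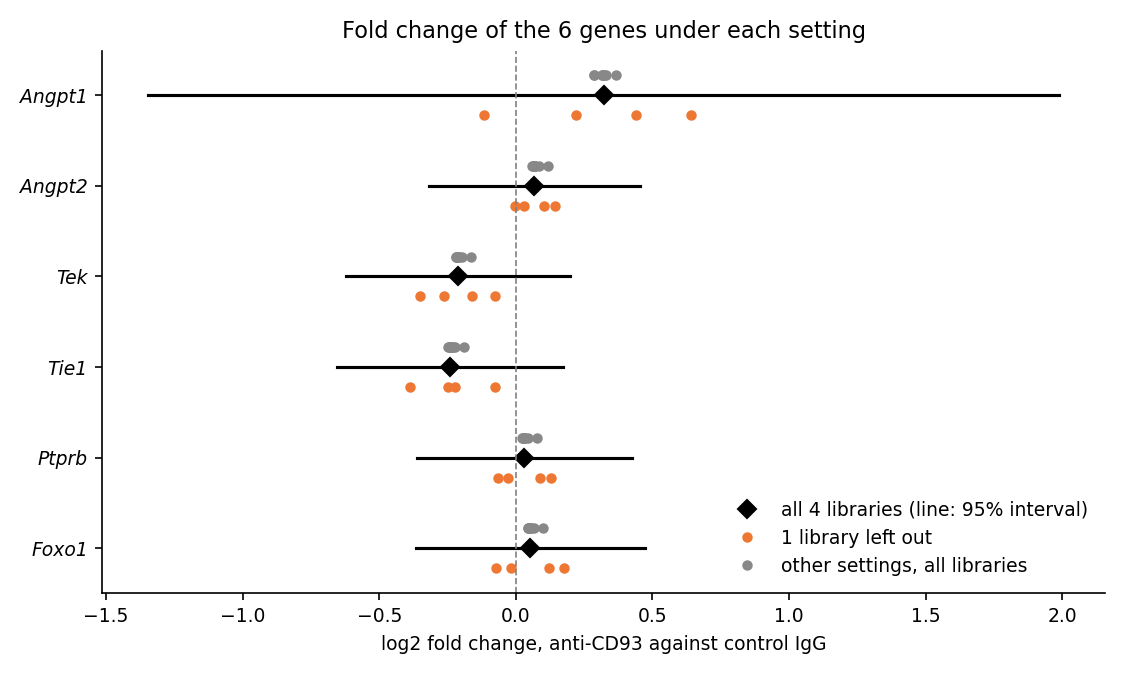
Log2 fold change of each gene, anti-CD93 against control IgG (x axis), with the fit of all 4 libraries as a diamond, its 95% interval as a line, other settings as grey points above it and fits with 1 library left out as orange points below it. All 6 intervals include 0, and the widest, for Angpt1, runs from -1.35 to 1.99.

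Ratios within a library do not depend on its depth or scaling, so 4 were computed from reads per kilobase. Angpt2 exceeded Angpt1 by 501 and 452 times in the control libraries and by 303 and 571 times in the anti-CD93 libraries. Both extremes were anti-CD93 libraries, and the denominators were the 8 to 22 reads of Angpt1. The ratio of Tie1 to Tek was 2.05 and 2.73 with control IgG and 2.60 and 2.11 with anti-CD93, with overlap between the groups.

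Relative to Tek, both Ptprb and Angpt2 were higher with anti-CD93. The ratio of Ptprb to Tek was 1.91 and 1.89 in the control libraries and 2.32 and 2.19 in the anti-CD93 libraries. The difference of the mean log2 ratios was 0.245, against SDs of 0.011 and 0.059 within the groups. The ratio of Angpt2 to Tek was 1.23 and 1.39 in the control libraries and 1.67 and 1.52 in the anti-CD93 libraries, a log2 difference of 0.283 against SDs of 0.12 and 0.092. An exact two-sided permutation test gave p = 0.333 for each, which is the smallest p that 2 against 2 libraries can give, and p = 1 for the ratios of Angpt2 to Angpt1 and Tie1 to Tek. Adjusted over the 4 ratios the p was 0.667 for the former pair. Both ratios have Tek as denominator, and of all genes tested 41.1% had a ratio to Tek whose groups did not overlap, 35.8% with the anti-CD93 libraries higher.

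**Figure D3:**
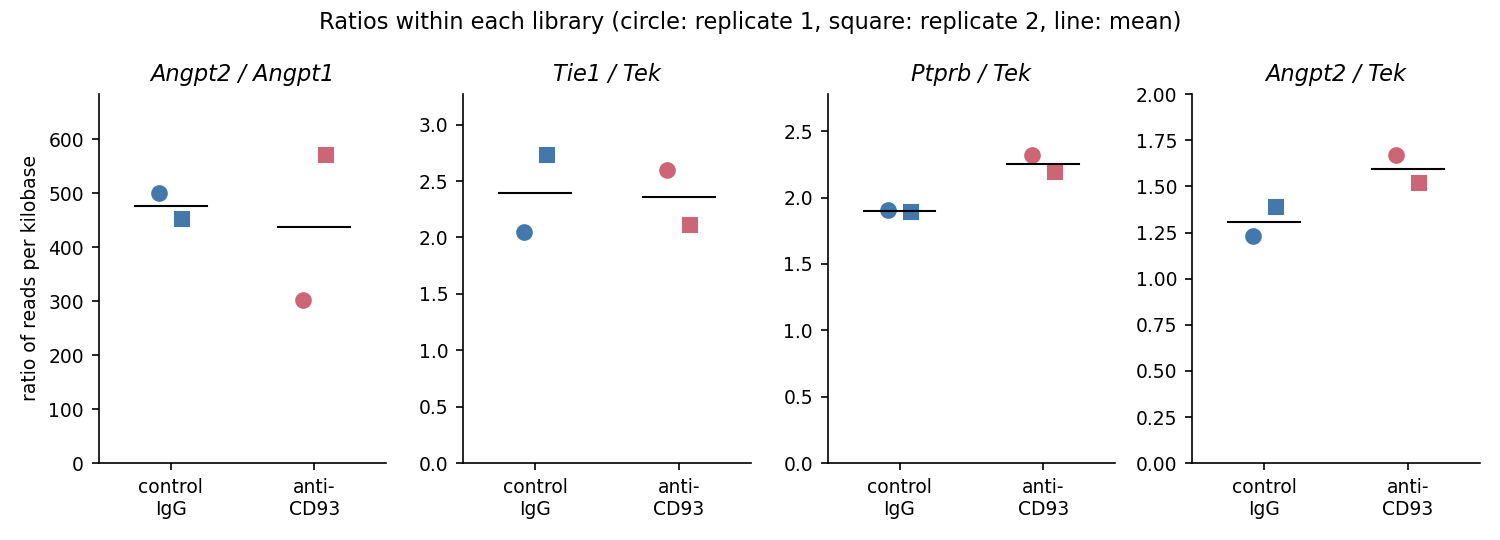
Ratios of reads per kilobase within each library (y axis, linear from 0) for 4 gene pairs, by group (x axis), with circles for replicate 1, squares for replicate 2 and a line at the group mean. The Ptprb to Tek and Angpt2 to Tek ratios of the anti-CD93 libraries lie above those of the control libraries, while the other 2 ratios overlap.

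Around the 6 genes, lists of pathway genes were read from the same fit. Over all genes 49.1% lay higher with anti-CD93, with a median log2 fold change of -0.0092, and 0 of the listed genes passed the test. Of the ligand relatives, the large matrix protein gene Svep1, whose product binds Tie1, was at 13.5 and 15.6 CPM with control IgG and at 10.7 and 13.1 CPM with anti-CD93 (-0.29 on the log2 scale, SE 0.26). Angpt4 and Lect2, the other members of that list, had too few reads to be tested.

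Signalling genes below the Tie receptors lay on both sides. Of the 18 tested, 12 were higher and 6 lower, with a median of 0.16 and a range from -0.79 to 0.505. The AKT kinase gene Akt1 was at 215 and 276 CPM with control IgG and at 183 and 207 CPM with anti-CD93 (-0.33 on the log2 scale, SE 0.19). The adaptor gene Shc1 was at 98.1 and 110.4 against 88.8 and 94.5 CPM. Pdpk1, the kinase that activates AKT, was at 59.0 and 43.8 against 66.7 and 70.1 CPM (log2 fold change 0.41, SE 0.21). In these 3 genes, named for their small p, the groups did not overlap, and for Pdpk1 control IgG replicate 2 was the lowest library. Of the 18 genes, 7 were higher and 2 lower without overlap, beside 20.1% and 19.7% of all genes. Akt1 and Pdpk1 passed when control IgG replicate 1 was left out (-0.50 and 0.64 on the log2 scale, adjusted p = 0.00603 and 0.00455 by edgeR), beside 26.8% of all genes. When control IgG replicate 2 was left out they did not pass, and their values were -0.14 and 0.21.

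FOXO target genes lay mostly higher with anti-CD93. Of 17 tested, 14 were higher and 3 lower, with a median log2 fold change of 0.15, and 6 were higher without overlap between the groups, beside 20.1% of all genes. Pdk4 and Txnip, 2 of the 17, were higher with an unadjusted p under 0.05 by edgeR, beside 1.99% of all genes. Other lists held such genes too, among them 3 tumour epithelial markers higher and 2 endothelial markers lower. Txnip, an inhibitor of thioredoxin, was at 187 and 127 CPM with control IgG and at 291 and 225 CPM with anti-CD93 (0.71 on the log2 scale, SE 0.24, adjusted p = 0.812 by edgeR). Pdk4, which restrains pyruvate oxidation, was at 4.57 and 4.17 against 9.21 and 6.76 CPM (log2 fold change 0.87, SE 0.34, adjusted p = 0.812 by edgeR). On the lower side Cited2, a transcription co-regulator, was at 32.4 and 47.9 against 35.6 and 37.3 CPM, and Pik3ip1, an inhibitor of PI3 kinase, at 5.46 and 12.4 against 7.23 and 5.74 CPM. Both had control IgG replicate 2 as their highest library, and when it was left out both were higher with anti-CD93 (0.17 and 0.25 on the log2 scale). With control IgG replicate 1 left out instead, Pik3ip1 passed at -0.93 (adjusted p = 0.0322 by edgeR). The count rested on control IgG replicate 2: without it 9 of the 17 were higher, with a median of 0.064, beside 50.6% of all genes. Without control IgG replicate 1, 7 of the 17 passed the test, 6 higher and 1 lower, among them Txnip at 1.03 on the log2 scale (adjusted p = 0.00472 by edgeR), again in the fit where 26.8% of all genes passed. The Txnip value without control IgG replicate 2 was 0.46 (adjusted p = 0.541 by edgeR). Several of these targets also answer to signals other than FOXO. Of the FOXO family and its regulators, 4 of 4 tested genes lay higher (median 0.30), among them Sgk1, a kinase that phosphorylates FOXO proteins, at 122 and 94.3 against 136 and 161 CPM, and Foxo4 at 14.9 and 11.03 against 17.3 and 16.1 CPM. Sgk1 passed without control IgG replicate 1 (0.66 on the log2 scale, adjusted p = 0.00421 by edgeR) and had a value of 0.28 without control IgG replicate 2.

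Regulators of Angpt2 transcription held the pair of shear-responsive factors Klf2 and Klf4. Klf2, which restrains Angpt2, was at 268 and 248 CPM with control IgG and at 129 and 188 CPM with anti-CD93 (-0.71 on the log2 scale, SE 0.22, adjusted p = 0.812 by edgeR). Klf4 was at 349 and 366 against 227 and 303 CPM (log2 fold change -0.43, SE 0.19). In both genes, named for their small p, the anti-CD93 libraries lay below the control libraries, and anti-CD93 replicate 1 was lowest. Of the 11 genes of this list, 3 were lower and 1 higher without overlap, beside 19.7% and 20.1% of all genes. Leaving out anti-CD93 replicate 1 gave -0.45 for Klf2 and -0.23 for Klf4. Leaving out anti-CD93 replicate 2 gave -0.65 for Klf4. Klf2 and Klf4 were at -0.651 and -0.465 without control IgG replicate 1, and at -0.765 and -0.4 without control IgG replicate 2. Vegfa, the growth factor that raises Angpt2, was at 163 and 229.8 CPM with control IgG and at 270.5 and 262 CPM with anti-CD93 (0.44 on the log2 scale, SE 0.21), and the hypoxia factor gene Hif1a was at 377 and 299 against 367 and 376 CPM. Of the 11 genes 4 were higher and 7 lower, with a median of -0.13. Without control IgG replicate 2 the Vegfa value was 0.71 (adjusted p = 0.0244 by edgeR), in a fit that called 0.0767% of all genes, and the Hif1a value was -0.023. The Vegfa value with control IgG replicate 1 left out was 0.21 (adjusted p = 0.133 by edgeR). The Hif1a value with control IgG replicate 1 left out was 0.31.

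Weibel-Palade body genes, whose products are stored or moved with Angpt2 protein, had 9 of 11 lower with a median of -0.096. Selp, the P-selectin gene, was at 100.3 and 173 CPM with control IgG and at 64.5 and 93.6 CPM with anti-CD93 (-0.79 on the log2 scale, SE 0.29), and without control IgG replicate 2 the value was -0.35. With control IgG replicate 1 left out the Selp value was -1.13. Igfbp7, a stored protein and CD93 ligand, was at 1993 and 2151 against 1742 and 1830 CPM. The membrane fusion gene Stx3 was at 17.0 and 15.6 against 20.2 and 20.9 CPM, and Rab27a at 13.9 and 13.3 against 13.6 and 14.8 CPM. Without control IgG replicate 2, 6 of the 11 were lower.

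Genes of the VE-cadherin complex and other receptor phosphatases, the partners and relatives of VE-PTP, were balanced, with 7 of 12 higher, 5 lower and a median of 0.0050. The plakoglobin gene Jup was at 212 and 259.9 CPM with control IgG and at 194 and 182 CPM with anti-CD93 (-0.33 on the log2 scale, SE 0.18), and the receptor phosphatase gene Ptpra at 141 and 126 against 118 and 115 CPM. The catenin gene Ctnnd1 was at 72.6 and 41.4 against 74.97 and 75.3 CPM, with control IgG replicate 2 low, and Ptprf at 47.0 and 38.7 against 51.6 and 49.7 CPM. Leaving out control IgG replicate 1 gave -0.47 for Jup and 0.86 for Ctnnd1 on the log2 scale. Their values with control IgG replicate 2 left out were -0.18 and 0.049.

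**Figure D4:**
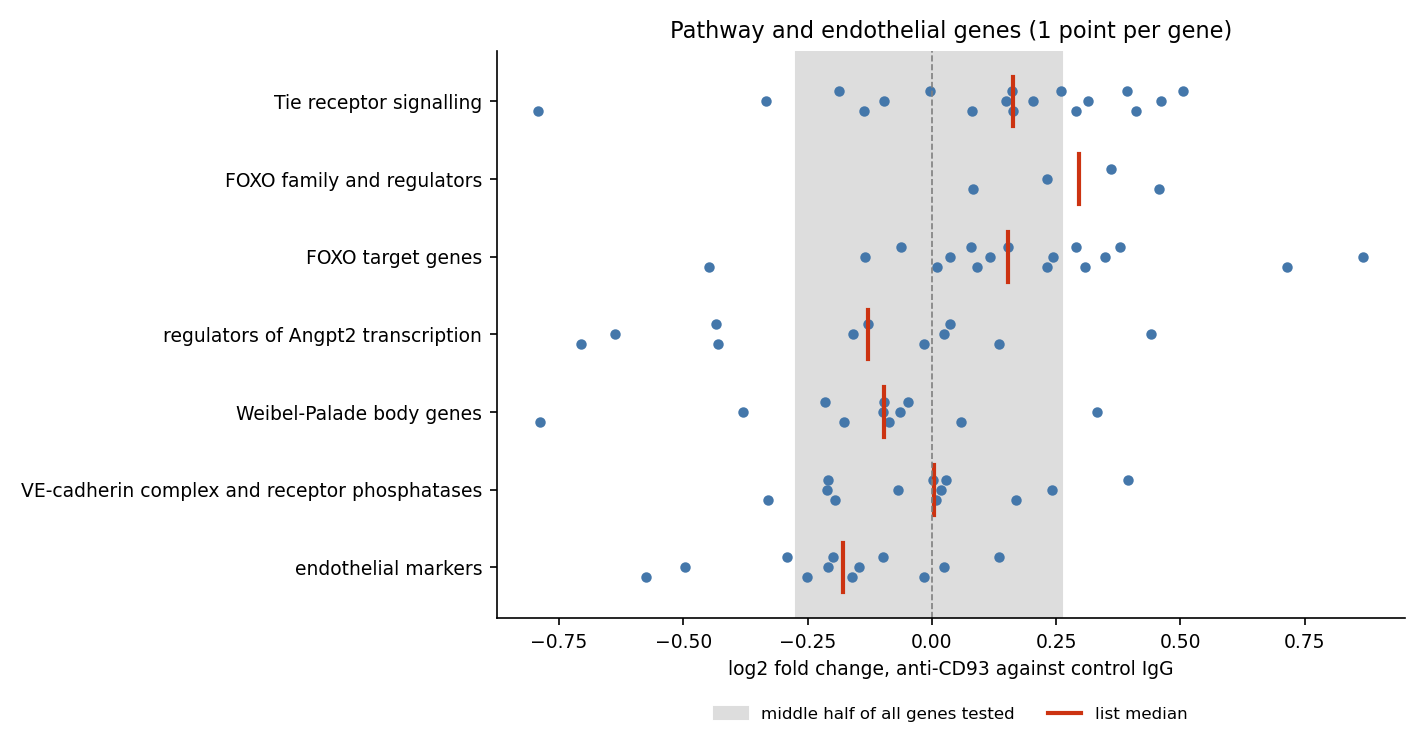
Log2 fold change, anti-CD93 against control IgG (x axis), of each tested gene in 7 lists (1 point per gene, spread vertically for sight), with the list median as a red line and the range between the quartiles of all tested genes shaded. FOXO target genes have a median of 0.15 and endothelial markers one of -0.18, both inside the shaded band.

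Similarity of profile was measured as the root mean square difference of centred log2 CPM over the 4 libraries, for members that spanned at least 0.5 on that scale. Only Angpt1, at 0.668, met this limit; the spans of the others were 0.172 (Angpt2) to 0.407 (Tie1). The nearest of 6546 genes were Dsp, a desmosome gene (0.044), the membrane receptor gene Gprc5a (0.068) and the glypican gene Gpc4 (0.076), and 9 genes lay within 0.1. Dsp was at 122 and 129 CPM with control IgG and at 191 and 121 CPM with anti-CD93. With 8 to 22 reads behind the Angpt1 profile and 4 libraries, such likeness is a description only.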

How the data were processed

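Counts of reads per gene name were deposited for 4 libraries. Per the file headers the authors counted them with featureCounts 2.0.1 on GENCODE vM25 (GRCm38) without paired-end, strand or overlap options, so mates were counted singly, antisense reads cannot be told apart, and reads on bases shared by exons of more than 1 gene were assigned to none. The tools named in the submitters' processing notes are STAR 2.7.5b and DESeq2 1.28.1. The counts stand in both deposited tables (0 of 221468 cells differed). Exon length for RPKM came from the deposited table.

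The filter was filterByExpr with a minimum count of 10 (16945 genes left), the scaling TMM, and the test edgeR 4.0.16 quasi-likelihood (robust dispersion, no covariates, Benjamini-Hochberg adjusted p under 0.05) in R 4.3.3; SE is the size of the log2 fold change divided by the root of F. The method was tested on simulated data. Alternatives were other scalings, count filters, DESeq2 1.42.0, voom of limma 3.58.1, halved counts, a replicate block and each library left out on the same genes. Log2 CPM used a prior count of 2. Depth and 2 libraries per group limit precision.

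Members and lists (140 entries, all 140 found) were chosen with earlier results of these data known. Named were the 6 members, up to 2 genes per list and side with the smallest p and at least 5 CPM, the highest marker per cell type, markers at 0 (Gp1bb), and 3 genes of similar profile per member with at least 20 CPM. 1 gene that this rule names is not reported here. Pdgfrb, Tagln, Epcam, Cdh1, Muc1 and the keratin genes other than Krt8 were added after their values were seen. Further marker lists were led by Flt4 (lymphatic, 444 CPM; 0 of 5 tested higher), Col1a1 (fibroblast, 1000 CPM; 3 of 8), Krt8 (tumour epithelial, 780.2 CPM; 5 of 8), Mrc1 (macrophage, 16.5 CPM; 7 of 10) and Itga2b (platelet, 21.7 CPM; 3 of 4).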

Additional observations from a re-analysis of the deposited data

How the results depend on the processing

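The sign of the log2 fold change of all 6 genes was the same under every other scaling, filter, tool, dispersion setting and halved counts, where the gene was tested; Angpt1 was not tested at a minimum count of 50 or with halved counts. None of the 6 passed under those settings. The median of all genes was -0.0092, and without the count filter it was -0.094 by edgeR and -0.13 by DESeq2, each over 33419 genes. The count of all genes past the test was 48 with no count filter, 5 by DESeq2 (also with none) and 14 with the replicate block, and the cause was not tested. The labels do not say whether same-numbered libraries belong together. Deviations of these libraries from their group means correlated at -0.016 across genes. With 2 libraries per group this value cannot show whether a pairing exists. With the replicate block 0 of the 6 passed. With 1 library left out, the lone library of its group is assumed to vary like the other group. For some named genes only the log2 value of such a fit is given, which does not tell whether the gene passed. The count of genes then ran from 0 to 4549 and the count of the 6 from 0 to 1 (Tie1, without control IgG replicate 1). The log2 fold change ran from -0.12 to 0.64 for Angpt1, from -0.0022 to 0.14 for Angpt2, from -0.064 to 0.13 for Ptprb and from -0.074 to 0.18 for Foxo1, so these 4 changed sign. It ran from -0.35 to -0.076 for Tek and from -0.39 to -0.076 for Tie1, which did not. FOXO target genes higher with anti-CD93 numbered 9 to 15 of 17, in fits chosen after the data were seen. The 4 ratios moved by less than 1 SD under group sums and an added read, and the block cannot change them in this balanced design; without 1 library the log2 difference ran from -0.65 to 0.26 for Angpt2 to Angpt1, from -0.22 to 0.19 for Tie1 to Tek, from 0.20 to 0.29 for Ptprb to Tek and from 0.20 to 0.37 for Angpt2 to Tek.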
